A study of Homo sapiens with 24 samples.

Results

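The genes described here are the spliced small nucleolar RNA host genes: every gene whose symbol is SNHG followed only by digits, together with GAS5, ZFAS1, EPB41L4A-AS1 and DANCR. By that rule 32 genes of the 60675 gene ids in the deposited tables are members, and all 32 were found. Of these, 28 had enough reads to be tested and 4 did not. The rule used names alone and no measured value.

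RNA was measured in HCT116, an established human colorectal cancer cell line, in 3 versions that the labels name by p53 status: wild type (WT), Mutant and Null. The labels do not say which mutation the Mutant line carries, how the Null line was made, or whether each line is a single clone. Each line received solvent, 20 uM APR-246 (a compound developed to reactivate mutant p53), irradiation with 6 Gy, or APR-246 before irradiation, called the combination here. There were 2 libraries per group, 12 groups and 24 libraries. All groups were kept in McCoy 5A medium with 10% serum, and the irradiated cells were collected 72 hours after exposure. The labels give replicate numbers without saying whether the replicates are separate cultures, so the p-values measure only the spread between these libraries.

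Small nucleolar RNAs guide chemical modification of ribosomal RNA: those with box C/D guide methylation of the ribose, and those with box H/ACA guide the change of uridine to pseudouridine. In mammals most of them are cut out of the introns of longer host transcripts. The hosts described here make a spliced RNA with little or no coding capacity; several of these RNAs reach the cytoplasm, meet ribosomes and are broken down by nonsense-mediated decay, so their level is known to rise when translation is blocked. GAS5 was named for accumulating in growth-arrested cells, and many hosts share with ribosomal protein genes a start site within a run of pyrimidines, the terminal oligopyrimidine signal that ties a transcript to growth-dependent translation.

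The start sites are shown for 8 hosts because they divide the members into a kind with and a kind without a pyrimidine run near the RefSeq start. Each line below gives the 40 bases around the start annotated by RefSeq on GRCh38.p14, 5′ to 3′ on the gene's own strand. Capitals mark a pyrimidine run (a C followed by at least 4 pyrimidines) that begins within 10 bases of that start, taken from the C nearest to the start; in SNHG8 the base before the capitals is a C as well. An entry without capitals has no such run.
SNHG5 (chr6:85678714-85678753, minus strand): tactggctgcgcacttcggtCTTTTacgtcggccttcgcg
SNHG32 (chr6:31834896-31834935, plus strand): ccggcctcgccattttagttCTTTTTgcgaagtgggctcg
ZFAS1 (chr20:49278622-49278661, plus strand): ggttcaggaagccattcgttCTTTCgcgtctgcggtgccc
SNHG8 (chr4:118278742-118278781, plus strand): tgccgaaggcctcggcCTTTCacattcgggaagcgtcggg
DANCR (chr4:52712374-52712413, plus strand): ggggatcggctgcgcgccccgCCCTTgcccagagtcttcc
EPB41L4A-AS1 (chr5:112160506-112160545, plus strand): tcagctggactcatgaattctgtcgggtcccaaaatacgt
GAS5 (chr1:173869026-173869065, minus strand): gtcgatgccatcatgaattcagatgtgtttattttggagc
SNHG30 (chr17:35568094-35568133, plus strand): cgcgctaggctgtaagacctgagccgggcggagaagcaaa
SNHG5, SNHG32 and ZFAS1 have the run at the annotated first base itself, SNHG8 just before it and DANCR just after it. A run of this kind was found in 16 of the 28 members with an entry in the promoter table (57.1%), against 11404 of all 35116 promoters (32.5%). In the whole window of 250 bases before to 50 bases after the start, the C/EBP-ATF element TGATGCAA, searched on both strands, was in 0 members and in 0.866% of all promoters. The E-box CACGTG, also searched on both strands, was in SNHG7 and SNHG30 and in 7.26% of all promoters. None of these motifs contains another, and a match of letters is not evidence of use.

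The libraries held 53184139 to 58058729 reads assigned to genes. The members together took 0.130 to 0.260% of the reads in the 6 solvent libraries and 0.0773 to 0.241% in the 18 treated libraries. The upper end of the treated range is the WT library 1 with APR-246, which sat with the solvent libraries for most members; without it the treated range ended at 0.152%. CDKN1A, the cell-cycle inhibitor that p53 induces, went from 508 and 582 deposited CPM (read counts scaled to the same total in each library) in WT solvent to 2162 and 2253 after irradiation, while it stood at 182 and 183 in irradiated Mutant and at 281 and 302 in irradiated Null. Summed markers of colorectal epithelium were high in every library (3837 to 21625 TMM-scaled CPM), those of blood cells were at 0.299 to 1.98, and those of fibroblasts, led by COL1A1, at 14.3 to 57.6. The epithelial sum was carried by the keratins KRT8 (up to 11922), KRT18 and KRT19. EPCAM, CDH1, CLDN7 and CDX2 were present at lower levels. The other listed markers were low: VIL1 at most 1.89, LGR5 at most 0.164 and CDX1 at most 0.0884. Levels below are TMM-scaled CPM, that is CPM divided by a factor per library that evens out composition. A change is the log2 difference ± its standard error from limma over the 20668 genes tested, and a gene is called at an adjusted p (Benjamini-Hochberg over all of these genes) of 0.05. In bulk RNA a lower level can mean fewer cells of a kind or less RNA in each, which cannot be told apart.

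SNHG29, host of SNORD49A, SNORD49B and SNORD65, was the most abundant member, with a median of 342 TMM-scaled CPM over the 24 libraries. GAS5 followed at 127, then SNHG7 at 72.1, SNHG1 at 71.8, SNHG6 at 68.7, SNHG32 at 55.4, SNHG16 at 53.3 and SNHG5 at 44.4. From SNHG7 to SNHG5 the ranges over the 24 libraries overlapped. These ranges include the differences between lines and treatments, and whether neighbours in that order differ was not tested. Per kilobase of annotated exon the order changed: SNHG29 stayed first at 91.1 CPM per kb, and the short transcripts of SNHG6 (55.1), SNHG19 (49.4) and SNHG8 (43.0) came before GAS5 (35.0). SNHG31 and SNHG14 were the lowest tested members, with medians of 0.137 and 0.0457 TMM-scaled CPM. SNHG14, the long imprinted transcript that carries the SNORD116 cluster, had 0 reads in 7 libraries. The 4 members that were not tested, SNHG18, SNHG22, SNHG27 and SNHG28, had at most 2, 7, 2 and 1 reads in any library. Here 17 members overlap a gene on the opposite strand and 8 one on the same strand, 20 in all, and the counting strand is not given in the sources used here, so reads of those members and of their partners cannot be told apart.

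After irradiation, 11 host genes were lower and 4 higher across the 3 lines, out of 28 tested. EPB41L4A-AS1, host of SNORA13, fell most, to a level 3.74-fold lower than solvent, and SNHG8, host of SNORA24, ended 3.29-fold lower. GAS5, SNHG12, SNHG32, SNHG1, ZFAS1, SNHG5, SNHG29, SNHG17 and SNHG15 fell by less. SNHG9, SNHG30, SNHG10 and SNHG21, all weakly expressed, rose. Of all 20668 genes, 6.13% were called lower and 6.84% higher in the same comparison, which is the mean of the 3 within-line differences and was chosen after the data had been seen. The median over the 28 members was -0.15, beside -0.01 over all genes.

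EPB41L4A-AS1 (chr5:112160526-112164276, plus strand) overlaps EPB41L4A, a protein-coding gene on the opposite strand. In WT, EPB41L4A-AS1 stood at 77.3 and 88.0 TMM-scaled CPM in solvent, 80.8 and 26.5 with APR-246, 27.1 and 26.9 after irradiation, and 26.4 and 27.9 with the combination. In Mutant, EPB41L4A-AS1 was at 48.0 and 67.9 in solvent, 27.1 and 12.6 with APR-246, 11.02 and 11.6 after irradiation, and 13.1 and 11.1 with the combination. Null libraries had EPB41L4A-AS1 at 68.0 and 63.8 in solvent, 23.9 and 21.9 with APR-246, 18.5 and 17.8 after irradiation, and 17.8 and 19.1 with the combination. Every irradiated and every combination library lay below both solvent libraries of its line, and so did each library with APR-246 except WT library 1. Irradiation changed it by -1.90 ± 0.23, adjusted p = 0.000198. Within lines it was called in Mutant (-2.29 ± 0.40, adjusted p = 0.0453) and, with a smaller difference, in Null (-1.83 ± 0.40, adjusted p = 0.0461), while the WT difference of -1.59 ± 0.40 just missed the threshold (adjusted p = 0.0557).

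SNHG8 (chr4:118278709-118279823, plus strand) is a short host whose start carries the pyrimidine run shown above. In WT, SNHG8 stood at 108 and 117 TMM-scaled CPM in solvent, 117 and 38.8 with APR-246, 50.6 and 44.4 after irradiation, and 45.3 and 44.1 with the combination. In Mutant, SNHG8 was at 99.0 and 129 in solvent, 40.6 and 29.9 with APR-246, 25.6 and 26.5 after irradiation, and 28.4 and 28.6 with the combination. Null libraries had SNHG8 at 91.9 and 107 in solvent, 38.0 and 30.3 with APR-246, 28.7 and 27.0 after irradiation, and 27.5 and 23.0 with the combination. The irradiated and combination libraries again lay below solvent in each line, with replicates close together, and WT library 1 with APR-246 again stood at the solvent level. Irradiation changed SNHG8 by -1.72 ± 0.21, adjusted p = 0.000198. SNHG8 was called in Mutant (-2.10 ± 0.36, adjusted p = 0.0453) as well as Null (-1.82 ± 0.36, adjusted p = 0.0320), whereas its difference in WT was -1.24 ± 0.36 (adjusted p = 0.0992). In Mutant, SNHG8 and EPB41L4A-AS1 were the only 2 genes called lower after irradiation among all 20668 (0.00968%).

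**Figure D1:**
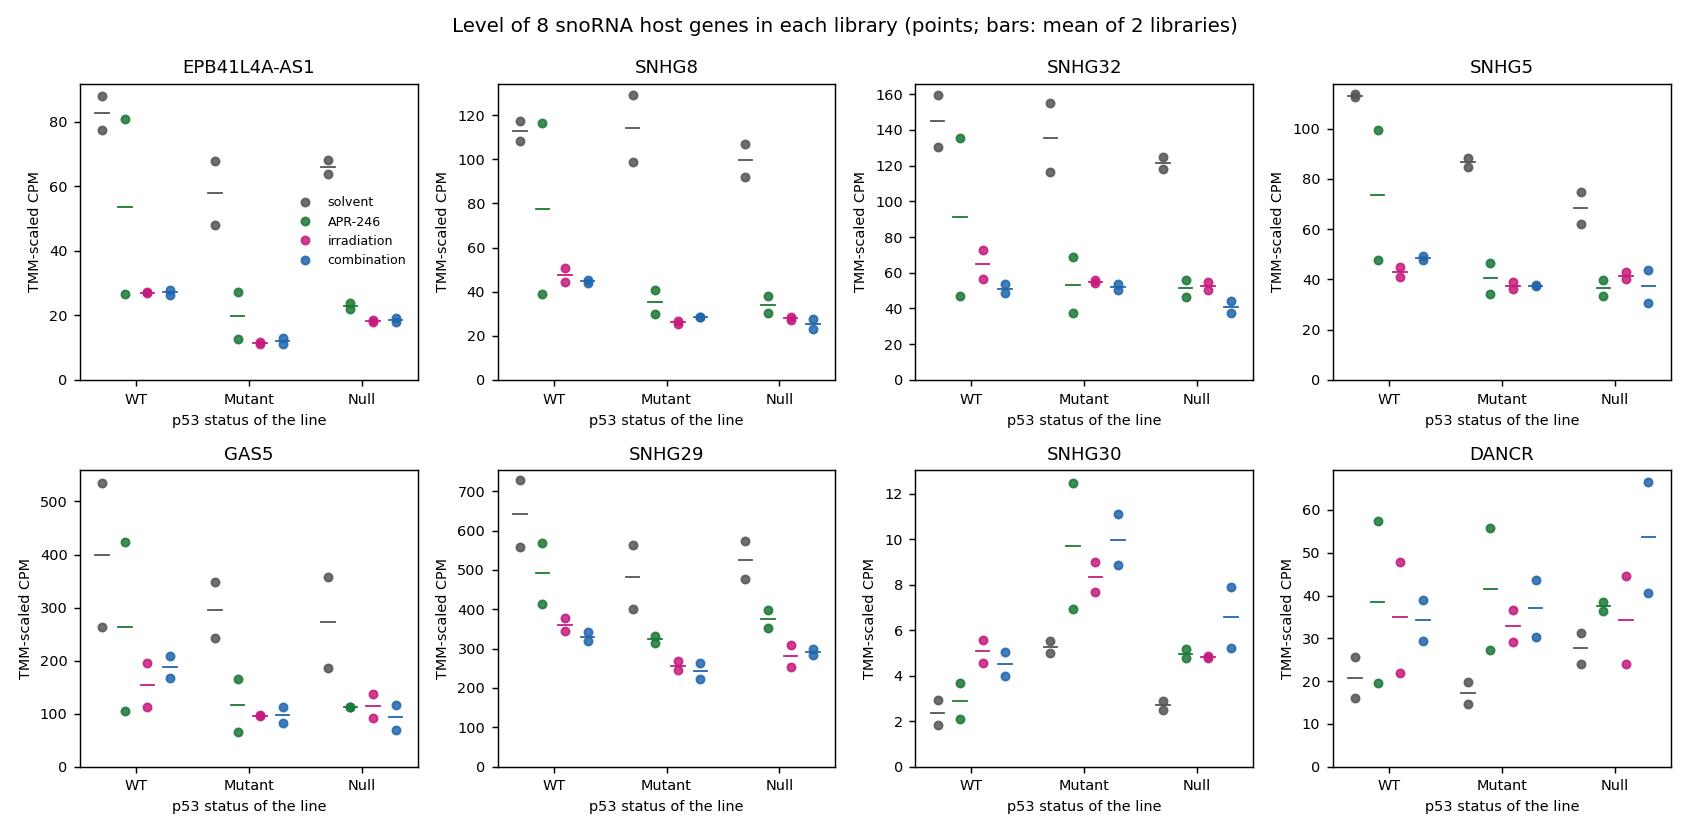
TMM-scaled CPM (vertical axis) of 8 host genes in each of the 24 libraries, by line and treatment (horizontal axis); each point is 1 library. EPB41L4A-AS1, SNHG8, SNHG32 and SNHG5 lie lower in every irradiated and combination library than in solvent, and WT library 1 with APR-246 lies at or just below the solvent level for these 4 genes, while SNHG30 lies above solvent in every irradiated library.

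SNHG5, SNHG32 and the most abundant host, SNHG29, had their highest group mean in solvent in each line. SNHG5 (chr6:85660950-85678748, minus strand) carries SNORD50A and SNORD50B. In WT, SNHG5 stood at 114 and 113 TMM-scaled CPM in solvent, 99.6 and 47.8 with APR-246, 41.1 and 44.9 after irradiation, and 47.6 and 49.3 with the combination. In Mutant, SNHG5 was at 84.9 and 88.3 in solvent, 46.5 and 34.3 with APR-246, 36.1 and 39.0 after irradiation, and 37.5 and 37.6 with the combination. Null libraries had SNHG5 at 74.7 and 62.2 in solvent, 39.8 and 33.4 with APR-246, 42.9 and 40.1 after irradiation, and 43.9 and 30.7 with the combination. Both libraries of every treated group lay below both solvent libraries, in all 3 lines and with each treatment, although WT library 1 with APR-246 did so by a small margin. Irradiation changed SNHG5 by -1.10 ± 0.17, adjusted p = 0.000738, 2.14-fold lower, and it was the 1 member called in WT alone (-1.39 ± 0.29, adjusted p = 0.0251), where 0.59% of all genes were called lower.

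SNHG32 (chr6:31834608-31839766, plus strand, named C6orf48 in GENCODE 29) is the host of SNORD48 and SNORD52. In WT, SNHG32 stood at 131 and 159.8 TMM-scaled CPM in solvent, 135 and 47.1 with APR-246, 72.8 and 56.7 after irradiation, and 53.4 and 48.6 with the combination. In Mutant, SNHG32 was at 117 and 155 in solvent, 69.0 and 37.2 with APR-246, 55.8 and 54.0 after irradiation, and 53.4 and 50.5 with the combination. Null libraries had SNHG32 at 118 and 125 in solvent, 56.1 and 46.3 with APR-246, 55.0 and 50.4 after irradiation, and 44.3 and 37.4 with the combination. After irradiation all libraries lay below solvent, and the groups did not overlap in any line. The change was -1.21 ± 0.22, adjusted p = 0.00236, 2.32-fold lower, and it was not called in any single line after irradiation.

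SNHG29 (chr17:16438822-16478678, plus strand, named LRRC75A-AS1 in GENCODE 29) changed by a smaller factor. In WT, SNHG29 stood at 559 and 728 TMM-scaled CPM in solvent, 569 and 414 with APR-246, 344 and 378 after irradiation, and 341 and 320.4 with the combination. In Mutant, SNHG29 was at 400.2 and 563 in solvent, 332 and 314 with APR-246, 246.14 and 268 after irradiation, and 223 and 263 with the combination. Null libraries had SNHG29 at 477 and 574 in solvent, 398 and 352 with APR-246, 253 and 309 after irradiation, and 284 and 299 with the combination. Its irradiated libraries stayed below solvent in each line. Irradiation changed SNHG29 by -0.87 ± 0.16, adjusted p = 0.00296, 1.83-fold lower.

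GAS5 (chr1:173863900-173868882, minus strand) carries the most small nucleolar RNAs of the well expressed hosts, 11 in RefSeq. In WT, GAS5 stood at 535 and 263 TMM-scaled CPM in solvent, 424 and 104 with APR-246, 195 and 112 after irradiation, and 209 and 167 with the combination. In Mutant, GAS5 was at 349 and 243 in solvent, 166 and 65.6 with APR-246, 95.2 and 97.6 after irradiation, and 112 and 81.4 with the combination. Null libraries had GAS5 at 358 and 186 in solvent, 113 and 113 with APR-246, 137 and 92.0 after irradiation, and 117 and 68.5 with the combination. Its replicates were far apart in several groups, most of all in WT with APR-246, and in solvent library 1 stood above library 2 in each line. The irradiated libraries still lay below both solvent libraries of their line. Irradiation changed GAS5 by -1.38 ± 0.34, adjusted p = 0.0158, 2.60-fold lower, and the call was lost without WT solvent library 1, WT irradiation library 2, Null solvent library 1 or Null irradiation library 2 (range with 1 library left out -1.55 to -1.20).

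SNHG1 (chr11:62851988-62855914, minus strand), host of a run of box C/D RNAs from SNORD22 to SNORD31, had equally wide replicates. In WT, SNHG1 stood at 152 and 77.3 TMM-scaled CPM in solvent, 150.1 and 50.1 with APR-246, 72.3 and 35.6 after irradiation, and 87.8 and 90.6 with the combination. In Mutant, SNHG1 was at 151 and 117 in solvent, 88.8 and 47.9 with APR-246, 56.7 and 55.3 after irradiation, and 91.1 and 63.0 with the combination. Null libraries had SNHG1 at 148 and 96.6 in solvent, 47.8 and 59.7 with APR-246, 71.4 and 38.1 after irradiation, and 62.3 and 42.8 with the combination. Its irradiated libraries lay below solvent, in WT by a small margin, while its WT combination libraries lay between the solvent libraries. Irradiation changed SNHG1 by -1.17 ± 0.29, adjusted p = 0.0163, a call that did not hold without WT solvent library 1, WT irradiation library 2, Null solvent library 1 or Null irradiation library 2 (range with 1 library left out -1.34 to -1.004).

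ZFAS1 (chr20:49278178-49295738, plus strand), antisense to ZNFX1 and host of the SNORD12 family, was named after its values had been seen, as were SNHG30 and DANCR below. In WT, ZFAS1 stood at 39.8 and 29.1 TMM-scaled CPM in solvent, 34.1 and 11.9 with APR-246, 14.4 and 11.45 after irradiation, and 15.2 and 13.03 with the combination. In Mutant, ZFAS1 was at 29.1 and 21.3 in solvent, 12.8 and 8.92 with APR-246, 9.36 and 11.1 after irradiation, and 9.24 and 9.67 with the combination. Null libraries had ZFAS1 at 22.0 and 13.8 in solvent, 8.61 and 7.96 with APR-246, 11.2 and 9.33 after irradiation, and 10.7 and 6.93 with the combination. Irradiated libraries lay below solvent in each line. The change was -1.12 ± 0.23, adjusted p = 0.00450, 2.17-fold lower. The remaining lower hosts were SNHG12 (-1.25 ± 0.33, adjusted p = 0.0216), SNHG17 (-0.79 ± 0.17, adjusted p = 0.00672) and SNHG15 (-0.78 ± 0.18, adjusted p = 0.00864). SNHG12 ranged from 7.56 to 47.9 TMM-scaled CPM over all libraries, SNHG15 from 26.0 to 76.3 and SNHG17 from 26.8 to 74.8. The SNHG12 call was lost without WT irradiation library 2, Mutant irradiation library 1, Mutant irradiation library 2, Null solvent library 1 or Null irradiation library 2 (range -1.48 to -1.01).

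**Figure D2:**
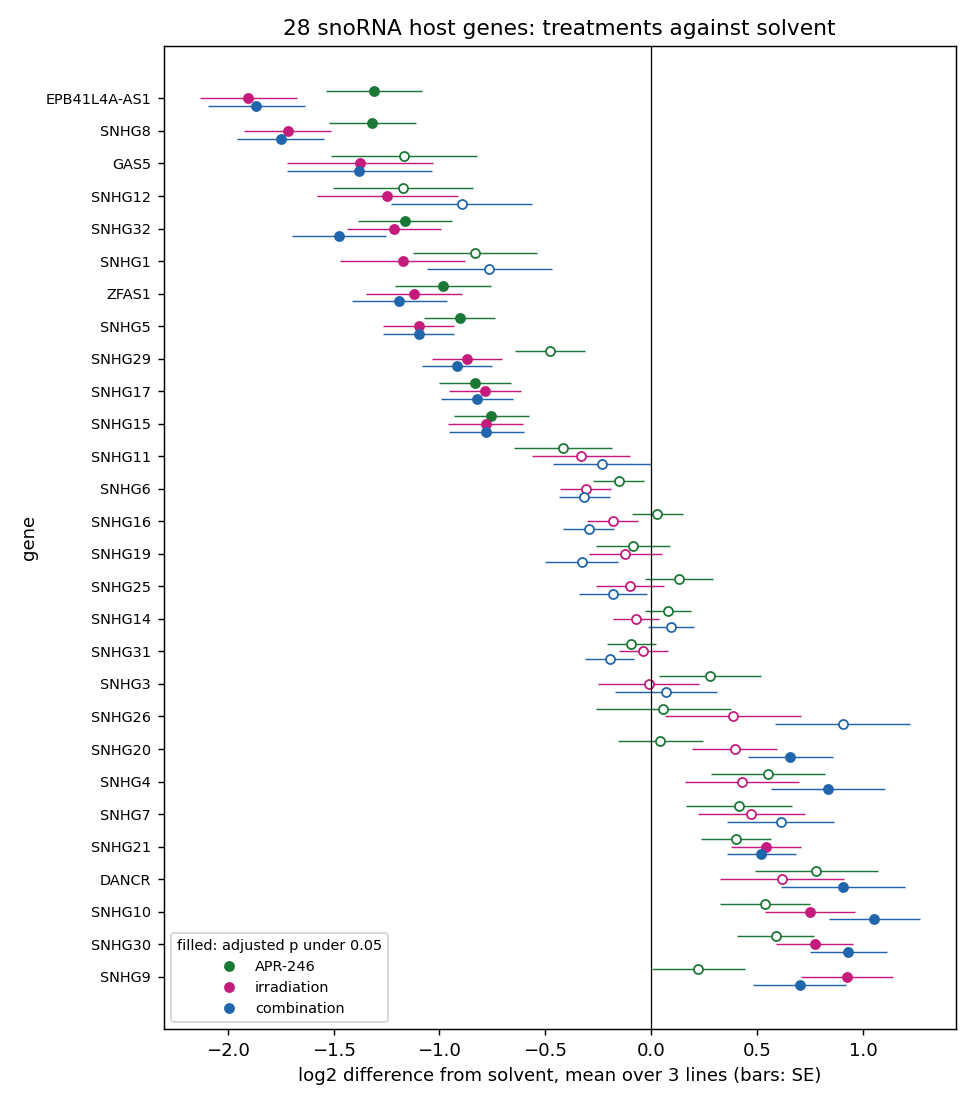
Log2 difference from solvent, averaged over the 3 lines, for the 28 tested hosts (rows) under APR-246, irradiation and the combination; points are limma estimates, bars their standard errors, and filled points are called at an adjusted p of 0.05. EPB41L4A-AS1 and SNHG8 lie farthest to the left, and SNHG10, SNHG9, SNHG30 and DANCR to the right.

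The hosts that rose were at low levels. SNHG30 (chr17:35568109-35574843, plus strand, named LINC02001 in GENCODE 29) carries SNORD7 and is one of the 20 members with an overlapping gene. In WT, SNHG30 stood at 2.93 and 1.84 TMM-scaled CPM in solvent, 2.12 and 3.67 with APR-246, 4.58 and 5.59 after irradiation, and 3.996 and 5.03 with the combination. In Mutant, SNHG30 was at 5.00 and 5.55 in solvent, 6.95 and 12.5 with APR-246, 7.68 and 8.998 after irradiation, and 8.87 and 11.1 with the combination. Null libraries had SNHG30 at 2.51 and 2.90 in solvent, 5.16 and 4.79 with APR-246, 4.78 and 4.88 after irradiation, and 5.23 and 7.93 with the combination. Both irradiated libraries lay above both solvent libraries in each line, the 1 member of which this was true, against 5.94% of all genes. SNHG30 changed by 0.77 ± 0.18, adjusted p = 0.0112. SNHG9, host of SNORA78, changed by 0.93 ± 0.22, adjusted p = 0.0119 over a range of 0.448 to 3.33 TMM-scaled CPM, SNHG10 by 0.75 ± 0.21, adjusted p = 0.0295 over 1.46 to 10.7, and SNHG21 by 0.54 ± 0.16, adjusted p = 0.0400 over 0.0235 to 1.15. SNHG10 and SNHG21 were called in 3 of 6 other settings. The SNHG10 call was kept with 1 library left out only for WT solvent library 1, Mutant solvent library 1 or Null solvent library 1 (range 0.55 to 0.95), and the SNHG21 call only for WT solvent library 1, Mutant solvent library 1 or Mutant irradiation library 1 (range 0.45 to 0.64).

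Counted library by library, 12 of 28 hosts had both irradiated libraries below both solvent libraries in all 3 lines, against 6.13% of all genes: the 11 that were called lower and SNHG6. With deposited CPM in place of TMM-scaled CPM, 7 hosts did so against 3.39% of all genes, and 4 (SNHG7, SNHG9, SNHG30 and DANCR) were higher in all 3 lines against 9.43%. SNHG6 (chr8:66921684-66926398, minus strand) carries SNORD87. In WT, SNHG6 stood at 92.0 and 94.8 TMM-scaled CPM in solvent, 88.9 and 85.8 with APR-246, 64.4 and 72.0 after irradiation, and 76.6 and 66.0 with the combination. In Mutant, SNHG6 was at 73.5 and 67.6 in solvent, 64.0 and 64.4 with APR-246, 59.7 and 65.3 after irradiation, and 56.8 and 63.5 with the combination. Null libraries had SNHG6 at 75.7 and 88.9 in solvent, 73.4 and 66.3 with APR-246, 63.0 and 69.8 after irradiation, and 73.8 and 57.8 with the combination. Its treated libraries lay below solvent in each line by a small margin, and its ratio of highest to lowest library was the smallest of the members. The irradiation difference of SNHG6 was -0.31 ± 0.12 (adjusted p = 0.104) and was not called.

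The hosts were also counted by the kind of small nucleolar RNA that RefSeq places within the span of the gene, in intron or exon. Across the lines after irradiation, 6.13% of all genes were called lower and 6.84% higher, and a single higher host in a group below is near that share. After irradiation 5 of 12 hosts of box C/D RNAs alone were lower and 1 higher. Of 11 hosts of box H/ACA RNAs alone, 4 were lower and 1 higher. GAS5 and SNHG12, the hosts in which RefSeq places the 2 kinds, were lower. SNHG25 is counted with the box C/D hosts, but GENCODE also places SNORA50C, a box H/ACA RNA by name, inside it. SNHG25 was not called after irradiation, so by GENCODE not every host of the 2 kinds was lower. Of SNHG10, SNHG20 and SNHG21, in which RefSeq places no named small nucleolar RNA, 2 were higher. By RefSeq start site, 7 of 15 tested hosts with the pyrimidine run shown above were lower and 0 higher. Of 9 without it 3 were lower (EPB41L4A-AS1, GAS5 and SNHG1) and 3 higher (SNHG10, SNHG21 and SNHG30). For some hosts, such as GAS5 (counted without the run) and SNHG14 (counted with it), the RefSeq start lies outside the GENCODE 29 gene. Their place in this split is therefore uncertain. These counts describe small groups and carry no test.

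With APR-246 alone, 7 of 28 hosts were lower across the lines and 0 higher, against 1.96% and 1.19% of all genes. They were SNHG8, EPB41L4A-AS1, SNHG32, ZFAS1, SNHG5, SNHG17 and SNHG15. Each treatment was compared with the same 6 solvent libraries, so the lists of the 3 treatments are not independent. Without TMM factors the calls were 1 higher and 4 lower. SNHG8 changed by -1.32 ± 0.21, adjusted p = 0.00622 and EPB41L4A-AS1 by -1.31 ± 0.23, adjusted p = 0.00777. SNHG32 changed by -1.16 ± 0.22, adjusted p = 0.0110, ZFAS1 by -0.98 ± 0.23, adjusted p = 0.0258 and SNHG5 by -0.90 ± 0.17, adjusted p = 0.00951. The calls of SNHG8 and EPB41L4A-AS1 were kept when any 1 of the 12 libraries was left out, whereas those of SNHG32 and SNHG5 were lost without Mutant APR-246 library 2 or Null APR-246 library 2 (ranges -1.42 to -0.91 and -1.08 to -0.73). ZFAS1 was kept only without WT solvent library 2, WT APR-246 library 1, Mutant solvent library 2, Mutant APR-246 library 1 or Null solvent library 2 (range -1.23 to -0.73), SNHG17 only without WT solvent library 1, WT APR-246 library 1, Mutant solvent library 1, Mutant APR-246 library 1, Null solvent library 1 or Null solvent library 2 (range -0.95 to -0.70) and SNHG15 only without WT solvent library 1, WT APR-246 library 1, Mutant solvent library 1, Mutant APR-246 library 1 or Null solvent library 1 (range -0.89 to -0.62). GAS5 had a difference of -1.17 ± 0.34 and missed the threshold (adjusted p = 0.0783).

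The WT group with APR-246 was split between its libraries. GAS5 stood at 424 in library 1 and 104 in library 2, SNHG1 at 150.1 and 50.1, and SNHG32 at 135 and 47.1 TMM-scaled CPM, so that library 1 was at the solvent level and library 2 at the level of the other treated libraries. The ATF4 target list, described further on, was also nearer solvent in that library than in any other treated one: its mean log2 distance from the average library was 1.13 there, 0.93 to 2.13 in solvent and -1.29 to -0.14 in the other treated libraries. Without WT APR-246 library 1, the difference with APR-246 across the lines was -1.58 for SNHG8, -1.57 for EPB41L4A-AS1 and -1.50 for GAS5. Within single lines limma called 0 hosts with APR-246, and edgeR also 0; 2 hosts in WT, 11 in Mutant and 9 in Null had an unadjusted p under 0.05, as did 557, 1516 and 1797 of all 20668 genes. Of all genes, 0% were called in WT and in Mutant, and 0.131% in Null.

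**Figure D3:**
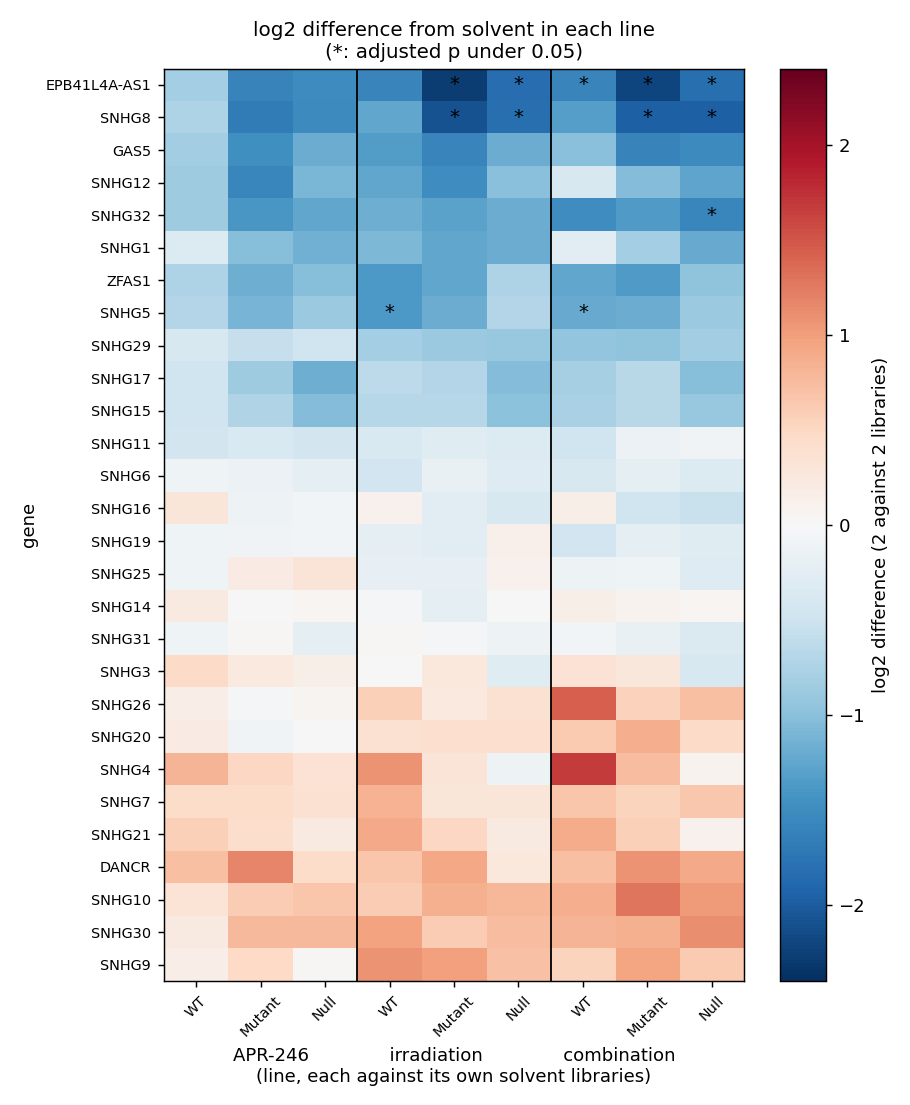
Log2 difference from solvent (colour) of the 28 tested hosts (rows) in each line under each treatment (9 columns); an asterisk marks an adjusted p of under 0.05. The WT column for APR-246 is paler than the Mutant and Null columns, and asterisks stand only on SNHG5, SNHG8, SNHG32 and EPB41L4A-AS1.

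With APR-246 before irradiation, 9 of 28 hosts were lower and 7 higher across the lines, against 6.29% and 7.63% of all genes. The lower hosts were EPB41L4A-AS1, SNHG8, SNHG32, GAS5, ZFAS1, SNHG5, SNHG29, SNHG17 and SNHG15. EPB41L4A-AS1 changed by -1.86 ± 0.23, adjusted p = 0.000184, SNHG8 by -1.75 ± 0.21, adjusted p = 0.000130, SNHG32 by -1.47 ± 0.22, adjusted p = 0.000543 and GAS5 by -1.38 ± 0.34, adjusted p = 0.0141. The higher hosts were SNHG10 (1.05 ± 0.21, adjusted p = 0.00388), SNHG30 (0.93 ± 0.18, adjusted p = 0.00304), SNHG9, SNHG20, SNHG21, and 2 that only just passed, DANCR (0.91 ± 0.29, adjusted p = 0.0496) and SNHG4 (0.83 ± 0.27, adjusted p = 0.0498). DANCR (chr4:52712404-52720351, plus strand), an RNA known for holding back differentiation, carries SNORA26. In WT, DANCR stood at 15.98 and 25.6 TMM-scaled CPM in solvent, 19.6 and 57.5 with APR-246, 22.0 and 47.9 after irradiation, and 29.4 and 39.1 with the combination. In Mutant, DANCR was at 14.6 and 19.8 in solvent, 27.4 and 55.7 with APR-246, 29.2 and 36.7 after irradiation, and 30.3 and 43.7 with the combination. Null libraries had DANCR at 23.9 and 31.3 in solvent, 38.5 and 36.4 with APR-246, 24.02 and 44.7 after irradiation, and 40.6 and 66.6 with the combination. Its combination libraries lay above solvent in each line, but library 2 was the higher one in 11 of 12 groups, and the call was kept with 1 library left out only for Null combination library 1 (range 0.79 to 1.02). The SNHG4 call was kept only for WT solvent library 1 or Null solvent library 1 (range 0.53 to 1.14), that of SNHG20 only for WT solvent library 1, Mutant solvent library 1, Null solvent library 1 or Null combination library 1 (range 0.48 to 0.83), that of SNHG21 only for WT solvent library 1, Mutant solvent library 1 or Null combination library 2 (range 0.39 to 0.65) and that of SNHG9 only for WT solvent library 2, Null solvent library 2 or Null combination library 1 (range 0.47 to 0.94).

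In single lines the combination called SNHG5 (-1.22 ± 0.29, adjusted p = 0.0371) and EPB41L4A-AS1 (-1.59 ± 0.40, adjusted p = 0.0478) in WT, where 0.929% of all genes were lower. In Mutant it called SNHG8 (-1.97 ± 0.36, adjusted p = 0.0341) and EPB41L4A-AS1 (-2.20 ± 0.40, adjusted p = 0.0341), where 0.0871% were lower. In Null it called SNHG8 (-1.96 ± 0.36, adjusted p = 0.0194), EPB41L4A-AS1 (-1.81 ± 0.40, adjusted p = 0.0314) and SNHG32 (-1.56 ± 0.38, adjusted p = 0.0478), where 0.876% were lower; for irradiation alone in Null that share was 0.266%. Each single-line call, after irradiation or with the combination, rests on 2 libraries against 2 and was lost without any 1 of the 4, except that of SNHG8 in Null for the combination, which was kept without combination library 1. Without TMM factors 0 hosts were called for irradiation or the combination in any single line.

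No host passed the test when APR-246 was added to irradiation, except SNHG7 across the lines with the GC slope of each library (how its read counts depend on the GC content of genes) as a covariate, where 2.18% of all genes were called higher. By limma 0 of 28 were called in any line or across the lines, 0 had an unadjusted p under 0.05, and edgeR called 0; 0% of all genes were called. The differences across the lines ran from -0.26 in SNHG32 to 0.52 in SNHG26. For SNHG8 the difference was -0.03 ± 0.21 and for EPB41L4A-AS1 0.04 ± 0.23, each smaller than its standard error.

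The lines differed in 1 host before any treatment. SNHG19 (chr16:2154797-2155358, minus strand), host of SNORD60, was higher in Mutant. In WT, SNHG19 stood at 15.4 and 15.8 TMM-scaled CPM in solvent, 16.8 and 12.4 with APR-246, 17.5 and 10.0 after irradiation, and 12.1 and 10.5 with the combination. In Mutant, SNHG19 was at 37.0 and 51.4 in solvent, 45.6 and 37.2 with APR-246, 37.1 and 35.4 after irradiation, and 39.8 and 34.0 with the combination. Null libraries had SNHG19 at 13.3 and 19.7 in solvent, 17.0 and 14.2 with APR-246, 22.3 and 14.0 after irradiation, and 13.5 and 12.9 with the combination. All 8 Mutant libraries lay above all 16 libraries of the other lines. In solvent SNHG19 was 1.40 ± 0.30, adjusted p = 0.0190 higher in Mutant than in Null, where 1.2% of all genes were called higher, and 1.45 ± 0.30, adjusted p = 0.0355 higher than in WT, where 0.213% were. Between WT and Null 0 hosts were called by limma or edgeR, 2 of 28 had an unadjusted p under 0.05, as did 1511 of all 20668 genes, and 0.992% of all genes were called. Each p53 status is 1 line here, so its effect and that of the line cannot be told apart. Both SNHG19 calls ended without TMM factors. With 1 library left out, the call against WT was lost in each of 4 cases (range 1.22 to 1.69) and that against Null without Mutant solvent library 2 or Null solvent library 1 (range 1.12 to 1.68).

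The irradiation response was compared between WT and Null and between Mutant and Null; Mutant was not compared with WT. Both for WT against Null and for Mutant against Null, 0 hosts were called by limma or edgeR and 0 had an unadjusted p under 0.05; 0.029% and 0% of all genes were called. With the GC slope of each library as a covariate, SNHG4 was called higher for WT against Null, as were 0.823% of all genes. For EPB41L4A-AS1 the WT response minus the Null response was 0.24 ± 0.56, and for SNHG8 0.57 ± 0.50. SNHG16 (chr17:76557766-76565348, plus strand), host of the SNORD1 family, was the member whose lines went opposite ways among those checked. SNHG25, which was not checked, also did so with APR-246. Its WT libraries stood at 0.548 and 0.527 TMM-scaled CPM, below the mean of solvent (0.956 and 0.353). Those of Mutant (0.711 and 0.462, solvent 0.485 and 0.405) and Null (0.452 and 0.798, solvent 0.509 and 0.304) lay above it. In WT, SNHG16 stood at 53.1 and 58.7 TMM-scaled CPM in solvent, 62.6 and 75.2 with APR-246, 62.4 and 57.2 after irradiation, and 64.7 and 58.0 with the combination. In Mutant, SNHG16 was at 49.0 and 49.6 in solvent, 48.6 and 41.7 with APR-246, 41.4 and 40.5 after irradiation, and 36.9 and 33.8 with the combination. Null libraries had SNHG16 at 63.7 and 72.1 in solvent, 66.4 and 62.3 with APR-246, 50.9 and 53.3 after irradiation, and 53.3 and 40.3 with the combination. In WT every treated library lay above the mean of solvent, and in Mutant and Null every one lay below it. Its irradiation response in WT minus that in Null was 0.47 ± 0.29, adjusted p = 1.00, not called.

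**Figure D4:**
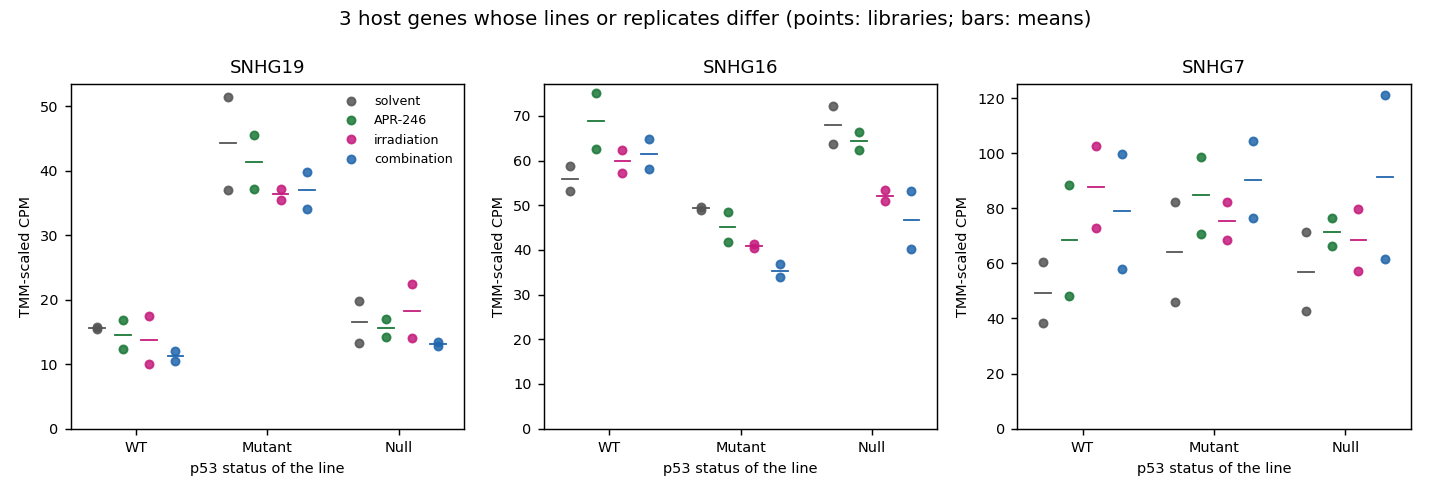
TMM-scaled CPM (vertical axis) of SNHG19, SNHG16 and SNHG7 by line and treatment (horizontal axis), 1 point per library. SNHG19 is at 34.0 to 51.4 in the 8 Mutant libraries and at most 22.3 in the others.

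SNHG7 (chr9:136721366-136728184, minus strand), host of SNORA17A and SNORA17B, missed the threshold in each comparison of a treatment with solvent by limma with TMM factors and no covariate, but passed it in several other settings. In WT, SNHG7 stood at 38.2 and 60.4 TMM-scaled CPM in solvent, 48.1 and 88.6 with APR-246, 72.8 and 103 after irradiation, and 57.9 and 99.9 with the combination. In Mutant, SNHG7 was at 45.8 and 82.1 in solvent, 70.7 and 98.6 with APR-246, 68.5 and 82.1 after irradiation, and 76.4 and 104 with the combination. Null libraries had SNHG7 at 42.7 and 71.3 in solvent, 66.5 and 76.4 with APR-246, 57.2 and 79.8 after irradiation, and 61.4 and 121 with the combination. The treated libraries lay above the solvent library of the same number in their line, except that Mutant irradiation library 2 was level with it (82.1 and 82.1). With the GC slope as a covariate the irradiation difference in Mutant was -0.17, not called. Library 2 was the higher one in 12 of 12 groups. The libraries differ in how strongly read counts depend on the GC content of a gene, and library 1 had the lower GC slope in 11 of 12 groups. SNHG3 (exons of 46.6% GC) was higher in the library with the lower slope in 12 of 12 groups, SNHG1 (43.1%) in 11 and GAS5 (42.2%) in 10. SNHG7 (65.9%) was so in 1 group and DANCR (53.7%) in 0, and SNHG30, with 42.2% GC, in 1. With the slope as a covariate, 21 hosts (8 higher, 13 lower) and not 15 were called after irradiation across lines, against 18.8% and 18.5% of all genes, and the 15 called without it kept their direction. In that fit SNHG7 was called higher after irradiation in WT (9.07% of all genes), with the combination in WT (11.2%), with APR-246 across the lines (13.5%) and with the combination across the lines (22.2%). Without TMM factors SNHG7 was called higher across the lines after irradiation (0.49, adjusted p = 0.0294, limma) and with the combination (0.74, adjusted p = 0.00253), and with the replicate number as a block in all 3 treatments across the lines (adjusted p = 0.00522 for irradiation, 0.0261 for APR-246 and 0.000841 for the combination). The part of the GC slope in the single differences was not tested further.

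**Figure D5:**
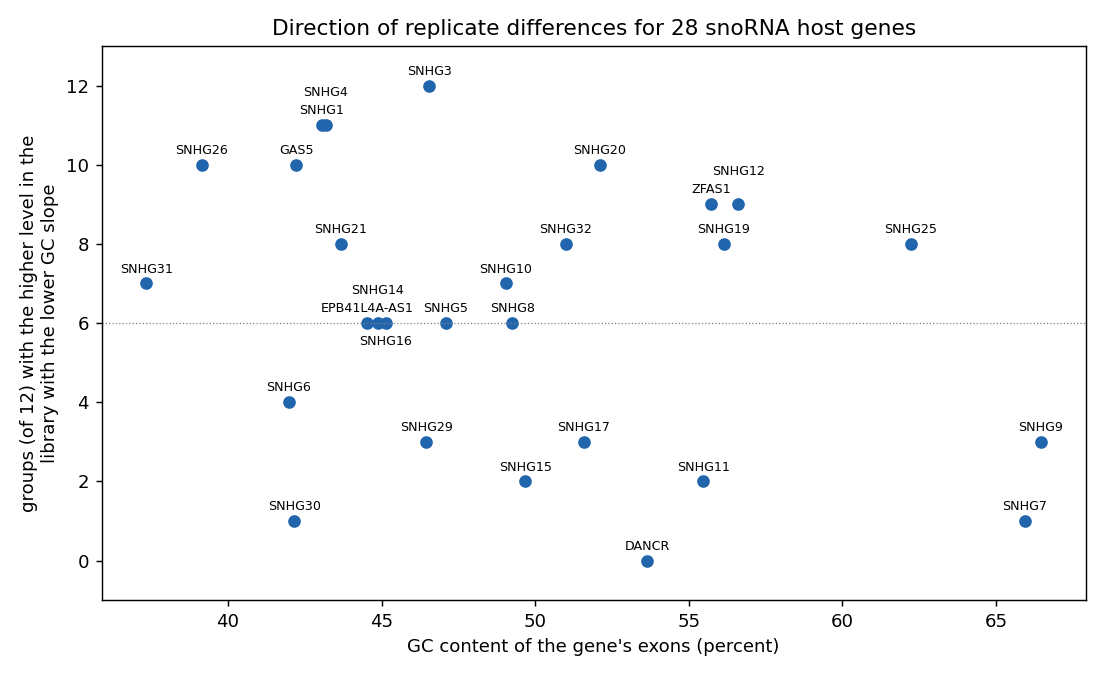
Number of the 12 groups (vertical axis) in which a host was higher in the library with the lower GC slope, against the GC percent of its longest transcript (horizontal axis). Each point is 1 tested host. SNHG3, SNHG1 and GAS5 lie at 10 to 12 groups, and SNHG7, SNHG30 and DANCR at 0 or 1.

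SNHG31 and SNHG14 were near the floor of detection. In WT, SNHG31 stood at 0.209 and 0.0941 TMM-scaled CPM in solvent, 0.148 and 0.0585 with APR-246, 0.143 and 0.187 after irradiation, and 0.131 and 0.116 with the combination. In Mutant, SNHG31 was at 0.263 and 0.0640 in solvent, 0.242 and 0.110 with APR-246, 0.0354 and 0.271 after irradiation, and 0.103 and 0.0586 with the combination. Null libraries had SNHG31 at 0.246 and 0.304 in solvent, 0.290 and 0.0665 with APR-246, 0.291 and 0.148 after irradiation, and 0.0971 and 0.118 with the combination. These values rest on few reads per library, since 3 reads correspond to 0.0517 to 0.0564 CPM. In WT, SNHG14 stood at 0.0149 and 0.0471 TMM-scaled CPM in solvent, 0.0444 and 0.195 with APR-246, 0.0475 and 0 after irradiation, and 0.146 and 0.0332 with the combination. In Mutant, SNHG14 was at 0.166 and 0 in solvent, 0.151 and 0 with APR-246, 0 and 0 after irradiation, and 0.0295 and 0.215 with the combination. Null libraries had SNHG14 at 0 and 0.0936 in solvent, 0.109 and 0.0166 with APR-246, 0.102 and 0 after irradiation, and 0.0809 and 0.0473 with the combination. No treatment stood apart for either gene, and the irradiation differences were -0.04 ± 0.12 for SNHG31 and -0.07 ± 0.11 for SNHG14, neither called; that of SNHG31 changed sign with the GC slope as a covariate.

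The small nucleolar RNAs themselves had few reads in these libraries, which were made from RNA selected with oligo(dT). GENCODE 29 places 139 of them inside 26 of the members, 84 in SNHG14 alone. Of these 28 had a read in any library and 8 had at least 10 reads in 1 library. SNORD104 in SNHG25 was the highest, at 0.829 to 3.68 deposited CPM, followed by SNORA73B in SNHG3 at 0.203 to 1.98. Of the 47 that overlap an annotated exon of the host, 1 had a single read. Outside SNHG14, 14 of the 21 that lie clear of host exons had a read, against 1 of the 34 that overlap one. Whether reads shared by a host and a small nucleolar RNA were counted was not tested, so these counts do not give the level of the guide RNAs. The values above are levels of the host transcripts and not of the guide RNAs they release.

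Other genes of the pathway are given as lists, by the counts of their members that were called. For comparison, 6.84% of all genes were higher and 6.13% lower after irradiation across the lines, and 7.63% and 6.29% with the combination. Of 8 core proteins that bind small nucleolar RNAs, DKC1 (-0.65 ± 0.12, adjusted p = 0.00271) and GAR1 (-0.43 ± 0.12, adjusted p = 0.0229), both of the box H/ACA particle, were lower after irradiation across the lines. Of 14 nonsense-mediated decay factors, RBM8A and SMG6 were lower after irradiation; in the combination SMG6 was lower and SMG8 higher, each 1 of 14 and near the share of all genes. Of 17 ribosomal protein genes that are hosts as well, RPL3 alone was called, lower in the combination (-0.86 ± 0.24, adjusted p = 0.0272), and the list's median was -0.23 after irradiation and -0.43 in the combination, where 16 of 17 were below 0. Of 17 other protein-coding hosts 1 was higher and 2 lower after irradiation: HSPA8, the constitutive heat shock chaperone, rose (1.28 ± 0.25, adjusted p = 0.00374), and TOMM20 and DKC1 fell. Of 10 long noncoding RNAs that are not hosts, H19 rose (1.12 ± 0.22, adjusted p = 0.00372) and OIP5-AS1 fell (-1.10 ± 0.35, adjusted p = 0.0485) after irradiation.

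Lists of nonsense-mediated decay targets and of targets of ATF4, the transcription factor of the integrated stress response, also held genes lower than in solvent. Of 8 mRNAs known as decay targets 4 were lower after irradiation, 6 with APR-246 and 4 in the combination, with medians of -0.77, -1.26 and -0.85. Of 9 tested genes of the ATF4 and integrated stress response list 8, 7 and 8 were lower, with medians of -2.48, -2.03 and -2.45, beside -0.01, -0.01 and 0.01 over all genes. ASNS, the asparagine synthetase that ATF4 induces, fell after irradiation (-2.48 ± 0.38, adjusted p = 0.000746), and so did CHAC1, which degrades glutathione (-2.81 ± 0.46, adjusted p = 0.00110); both were picked from the list after their values were seen. ATF4, its partner DDIT3 and ATF3 stand on the decay list, so the lists are not separate from each other. The part of the stress response or of the decay pathway in the host levels was not tested.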

How the data were processed

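Gene expression was measured by RNA-seq in 24 libraries of 12 groups, taken from the labels alone. The submitters' processing notes name STAR, featureCounts (Subread), FastQC and the build GRCh38.p13; versions, annotation release and counting strand are not given in the sources used here. The authors deposited CPM per gene. They were whole multiples of 1 read within 0.05 of a read for 100% of values, so reads were recovered for an alternative test, with totals of 53184139 to 58058729. Even numbers made up 74.5 to 81.5% of values of 2 to 9 reads, so the number of fragments is lower than that of reads, and floors cover counting error only.

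Symbols were found for 60419 of 60675 ids and GENCODE 29 coordinates for 58444. Genes kept by filterByExpr (count minimum 10) numbered 20668. Log2 of TMM-scaled CPM plus 0.5, which understates changes of low genes, was fitted with limma-trend and robust variance (limma 3.58.1, edgeR 4.0.16 for TMM, R 4.3.3), with 1 coefficient per group and 12 residual degrees of freedom, and p-values were adjusted by Benjamini-Hochberg over all genes. Plots were made with matplotlib 3.10.9. The fit was tested on simulated data.

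Members and gene lists were chosen with earlier results of these data known. The means over 3 lines were added after the 17 comparisons within and between lines. Values in every library are given for the 8 most abundant members, those called in a line and the lowest 2. Alternatives were no TMM factors, a pseudocount of 2, no filter, edgeR's quasi-likelihood test on recovered reads, the replicate number as a block, the GC slope of each library as a covariate, and leaving out each library. Promoter sequences are RefSeq's on GRCh38.p14, found for 28 of 32 members. Some items are not reported here.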

Additional observations from a re-analysis of the deposited data

Results flagged for a closer look

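Among the members checked, which did not include SNHG25, SNHG16 alone had lines on opposite sides. Every treated library of WT lay on 1 side of its solvent mean, and every treated library of the other line on the other side. The values below are differences between lines of the mean log2 change from solvent. With APR-246 SNHG16 differed by 0.37 for WT minus Null and by -0.42 for Mutant minus WT. After irradiation it differed by 0.47 for WT minus Null and by -0.36 for Mutant minus WT. With the combination the differences were 0.68 for WT minus Null and -0.61 for Mutant minus WT. Of these 6 differences 1 was tested: for irradiation in WT minus Null limma gave an adjusted p of 1.00, so it was not called. The other 5 were not tested.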

How the results depend on the processing

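Among the hosts called in any comparison, 0 changed sign under the 6 alternative settings. The replicate block could not change a sign, since it leaves the differences themselves as they were. The hosts counted here were also chosen by their calls in these same data. Averaged over the 3 lines, 9 of the 15 irradiation calls (SNHG5, SNHG8, SNHG9, SNHG15, SNHG17, SNHG29, SNHG30, SNHG32 and EPB41L4A-AS1), 9 of the 16 combination calls and 3 of the 7 APR-246 calls (SNHG8, SNHG17 and EPB41L4A-AS1) were called in all 6. The counts within single lines moved with most settings; the cause was not tested.

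Without TMM factors, 0 hosts were called for irradiation or the combination in WT, Mutant or Null, and 0 for Mutant minus Null or Mutant minus WT in solvent; the median of all genes then moved to 0.19 for the combination in WT and to 0.12 for Mutant minus Null. With a pseudocount of 2, 2 were called for irradiation in WT. Without the filter, 0 were called for the combination in WT and for Mutant minus WT, and 1 each for irradiation and the combination in Null; across the lines the combination gave 11. With edgeR, 0 were called for the combination in WT, for both in Mutant and for irradiation in Null, and 1 for the combination in Null.

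With the replicate number as a block, irradiation called 12 hosts in WT, 10 in Mutant and 7 in Null, the combination 10, 9 and 13 in the same order, and APR-246 gave 7 in Mutant, 5 in Null and 14 across the lines. The share of all genes called is not given for these block counts. A rise in calls among hosts therefore cannot be told apart from one over all genes. The replicate numbers share no stated origin, so they were not taken to pair the libraries in the main fit. Deviations of same-numbered libraries still correlated over genes in most of 66 pairs of groups, with a median r of 0.76. They lay above 0.1 in 55 pairs and below 0 in 11, from -0.72 to 0.95. A difference between libraries 1 and 2 that most groups share therefore stayed in the spread of the main fit. With the GC slope, irradiation called 15 hosts in WT, 13 in Mutant and 10 in Null, and the combination 16, 17 and 14. APR-246 gave 8 in Mutant, 11 in Null and 19 across the lines, the solvent groups 2 for WT minus Null, 3 for Mutant minus Null and 3 for Mutant minus WT, the irradiation response of WT minus Null 1 (SNHG4), and the combination minus irradiation across the lines 1. With the GC slope, 9.07% of all genes were called higher for irradiation in WT and 11.2% for the combination in WT. For most of these counts the share of all genes is not given, so they do not single out the hosts.

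With 1 library left out, calls ranged from 0 to 0 for irradiation in each line, the combination in Mutant and Mutant minus WT, from 0 to 1 for APR-246 in WT, the combination in WT and in Null and Mutant minus Null, and from 2 to 12 for APR-246 across the lines. There the count was 2 without Mutant or Null APR-246 library 2, 4 without WT APR-246 library 2 or Null APR-246 library 1, and 12 without WT APR-246 library 1. Irradiation across the lines gave 10 to 15 calls and the combination 11 to 15. A left-out library leaves 1 in its group, assumed to vary like the others, and the share of all genes called is not given for these counts. With 2 libraries per group, a log2 difference had a standard error of 0.32 at the median over genes, and hosts of under 1 CPM rest on few reads.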
